A study of Mus musculus with 4 samples.

Results

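The ATP-binding cassette (ABC) transporters were described in liver RNA of mice that lack DDI2 in hepatocytes and of WT littermates. Members were taken by symbol: protein-coding genes whose symbol is Abc, a letter from a to g and a number, with 1 gene of that form left out of the list and of all its counts and sums, which gave 49 of the 48709 gene identifiers in the count tables and 49 of the 21695 protein-coding ones. Of these 49 genes, 39 passed the filter on low counts and were tested, 7 had no read in any of the 4 libraries, and 3 had at most 11 reads in a library. RNA came from untreated C57BL/6 mice, and the study used animals of 6 to 12 weeks of age. The 2 WT libraries are from mice homozygous for a floxed Ddi2 allele without Cre recombinase, and the 2 DDI2-KO libraries are from mice homozygous for the same allele that carry Cre under the albumin promoter, which is active in hepatocytes, so other cells of the liver keep Ddi2. Poly(A) RNA was sequenced with a strand-specific kit, and the deposited values are raw counts of reads on each gene. The sample labels give the genotypes as WT and DDI2-/-, and libraries are named by these groups.

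ABC proteins share an ATP-binding domain that powers the movement of a substrate across a membrane, and in the liver they are best known for the export of bile constituents, lipids and conjugated drugs. Hepatocytes carry some of them in the canalicular membrane, which faces the bile, and others in the basolateral membrane, which faces the blood, while further members work in mitochondria, peroxisomes and lysosomes. Members of the ABCE and ABCF subfamilies have no membrane domain and act on ribosomes. DDI2 is an aspartic protease that activates the transcription factor NRF1 (gene Nfe2l1), and several ABCC genes are known targets of the related factor NRF2.

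Reads on genes numbered 34109018 and 31532247 for WT and 25582344 and 22501208 for DDI2-KO. CPM is the count of a gene relative to the library size after TMM normalisation. On this scale a limit of detection of 3 reads was equal to 0.0892 to 0.131 CPM. The hepatocyte marker Alb was at 134404 and 154589 CPM in WT and 122390.0 and 128489 CPM in DDI2-KO, and all 6 hepatocyte markers were tested with none called. Ddi2 itself had 141 and 123 CPM in WT and 157 and 164 CPM in DDI2-KO, so its count does not show the deletion. Reads were counted over the whole gene, and whether the floxed part was missing from the RNA was not tested. Xist was counted in all 4 libraries, and the 4 Y-linked genes looked at had 0 reads in each, so the libraries are from female mice. The Xist counts were 17484 and 11533 reads in WT and 1230 and 3288 reads in DDI2-KO. Why they were lower in both DDI2-KO libraries was not tested. Of the markers of other cell types, Stab2 of the sinusoidal endothelium and the erythroid Hba-a1 were called lower (edgeR adjusted p = 0.0288 and 0.0338), as were 1.2% of all genes tested. None of the tested cholangiocyte, Kupffer cell, stellate, smooth muscle and lymphocyte markers was called. Of the 5 endothelial markers, 3 had a higher and 2 a lower estimate in DDI2-KO, with a median log2 fold change of 0.039. All 5 erythroid markers had a lower estimate. The call of Stab2 was lost without the first WT library (adjusted p = 0.109) and that of Hba-a1 without either DDI2-KO library (edgeR adjusted p = 0.196 and 0.213). In bulk tissue, fewer cells of a type and less RNA per cell cannot be told apart.

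No ABC gene passed the test between the genotypes. With edgeR (quasi-likelihood test, Benjamini-Hochberg adjustment over all 13699 genes tested), 0 of 39 ABC genes had an adjusted p under 0.05, against 2.53% of all genes tested (1.33% higher and 1.2% lower in the DDI2-KO libraries). An unadjusted p under 0.05 was reached by 11 of 39 ABC genes, or 28.2%, against 23.5% of all genes, 5 of them higher (12% of all genes were) and 6 lower (11.5%) in the DDI2-KO libraries. DESeq2 called 1 ABC gene, Abcg2 (against 6.86% of all genes), and limma-voom and limma-trend called 0 (against 0.993% and 1.01%). The groups did not overlap in 24 of 39 ABC genes (61.5%, against 55.7% of all genes). In 16 of the 24, both DDI2-KO libraries lay below both WT libraries, which was 41% of the ABC genes tested against 27.7% of all genes, and in 8, or 20.5% against 28%, they lay above. The log2 fold change of DDI2-KO over WT was below 0 for 27 of 39 ABC genes (69.2%, against 51.3% of all genes), and its median was -0.17 over the ABC genes and -0.015 over all genes. No test was made of the list as a whole. The 95% interval of the fold change lay within 2-fold in either direction for 31 of the 39 ABC genes, or 79.5%, against 61.2% of all genes. The remaining 8 genes, for which a 2-fold difference lay inside the interval, included Abcb6, Abcg2, Abcc5, Abcc10, Abcg8 and Abca2. Abcb1b and Abcc12, the tested genes with the lowest levels, were the others.

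**Figure D1:**
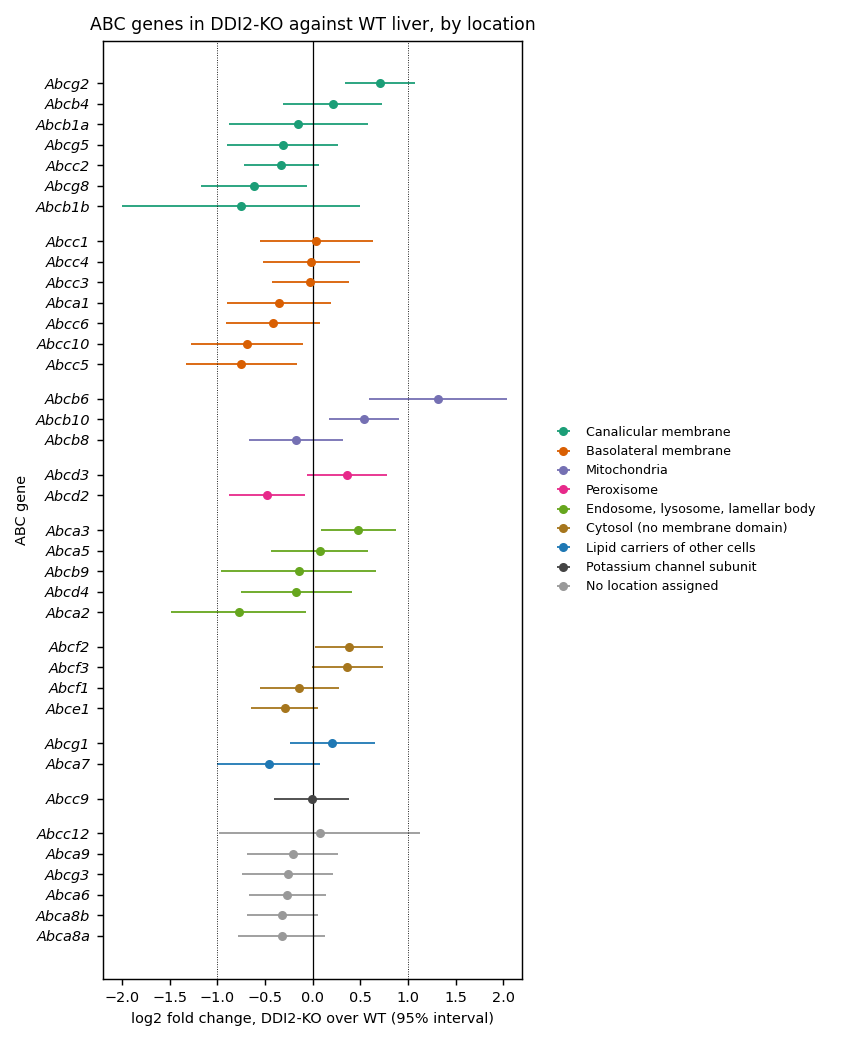
log2 fold change of DDI2-KO over WT liver (horizontal axis) for 37 of the 39 tested ABC genes (vertical axis), coloured and grouped by location. Points are edgeR estimates from 2 libraries a group, bars are 95% intervals, and dotted lines mark a 2-fold difference. The estimates run from -0.78 for Abca2 to 1.31 for Abcb6, and 25 of the 37 lie below 0.

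The levels of the ABC genes in liver spanned about 3 orders of magnitude. They are given as CPM per kilobase of annotated exons, which allows genes of different length to be compared. Abcd3 and Abcc2 had the highest levels. Abcd3, a peroxisomal transporter of long-chain acyl-CoA, was at 57.5 ± 7.58 CPM per kilobase in WT and 73.9 ± 4.83 in DDI2-KO (SD, n = 2). Abcc2, the canalicular exporter of bilirubin and glutathione conjugates, was at 70.7 ± 3.12 in WT and 56.2 ± 3.67 in DDI2-KO. The WT mean was thus higher for Abcc2 and the DDI2-KO mean higher for Abcd3. When the length of the longest annotated transcript was used instead, an alternative chosen after seeing the data, Abcd3 was at 124 and Abcc2 at 67.5 CPM per kilobase over the 4 libraries, so the ratio of these levels depends on the length taken.

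Abcg5 and Abcc3 followed, at 39.6 and 37.7 CPM per kilobase of exons over the 4 libraries, and they differed by less than the SD of Abcg5 in WT, which was 14.2. Abca6 was at 32.8, Abcg8 at 30.4, Abca8a at 23.5, Abcd2 at 20.6, Abca1 at 18.1 and Abcb4 at 17.3. With the longest transcript's length Abcb4 was at 39.9, which moved it from rank 10 to rank 5 of the ABC genes. At the other end, Abcb1b was at 0.0625 and Abcc12 at 0.0905. The 7 genes without a read were Abca12, Abca13, Abca15, Abca16, Abca17, Abcb5 and Abcc8, for which the depth allows up to 0.0892 to 0.131 CPM. Abca14 had 2 to 11 reads a library, Abca4 had 4 to 7 and Abcg4 had 0 to 1. Abca4 is known from photoreceptors, Abca12 from skin and Abcc8 from pancreatic beta cells.

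**Figure D2:**
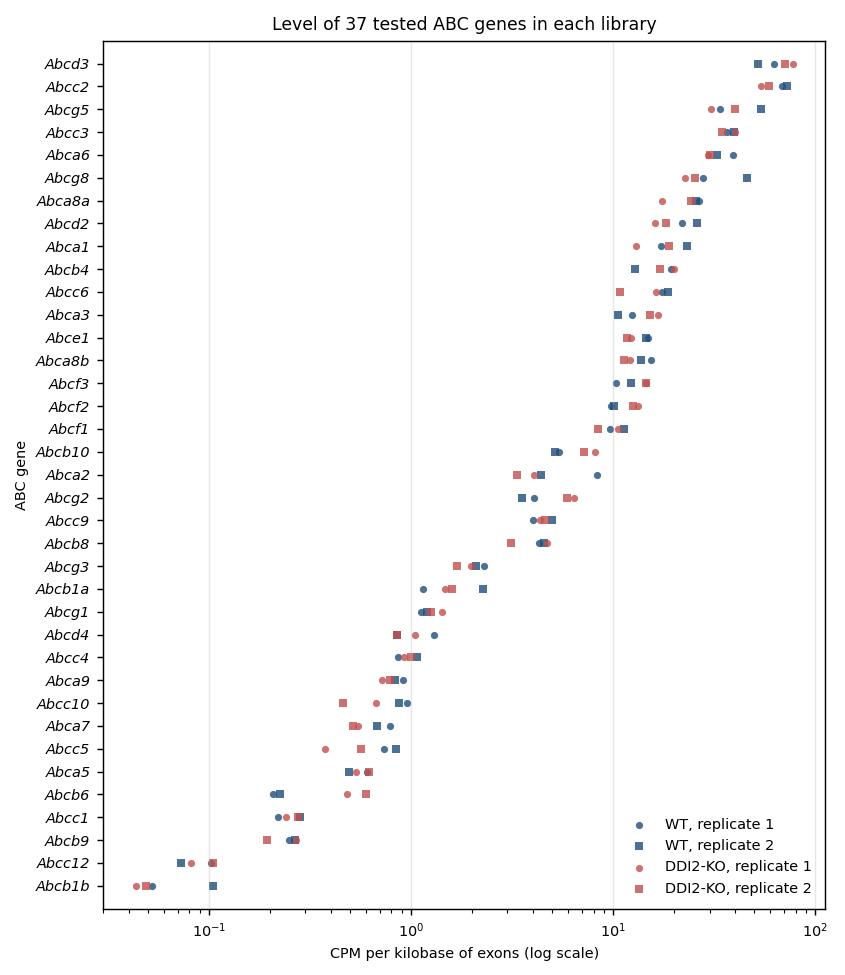
Level of 37 of the 39 tested ABC genes (vertical axis) in CPM per kilobase of exons (horizontal axis, log scale). Each point is a library, WT in blue and DDI2-KO in red, circles for replicate 1 and squares for replicate 2. Abcd3 and Abcc2 have the highest levels and Abcb1b and Abcc12 the lowest.

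Summed over the 49 genes, ABC transcripts took 3135 and 3174 CPM in WT and 2908 and 2912 CPM in DDI2-KO. Both DDI2-KO sums lay below both WT sums, but with 2 libraries a group an exact permutation test cannot go below p = 0.333. The genes of the canalicular membrane held the largest sum of the location lists, at 1002 and 1102 CPM in WT and 875 and 923 CPM in DDI2-KO, and both DDI2-KO sums were below both WT sums. Those of the basolateral membrane summed to 511 and 600.0 CPM in WT and 475 and 473 CPM in DDI2-KO, again with the DDI2-KO libraries lower. The genes without a membrane domain summed to 193 and 208 CPM in WT and 206 and 191 CPM in DDI2-KO, and the genotypes overlapped. The sum of the peroxisomal genes Abcd3 and Abcd2 lay the other way. It was 545 and 499 CPM in WT and 606 and 573 CPM in DDI2-KO, with both DDI2-KO libraries above both WT libraries. Abcd3 made up most of this sum and was higher in DDI2-KO, whereas Abcd2 alone was lower in both DDI2-KO libraries.

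**Figure D3:**
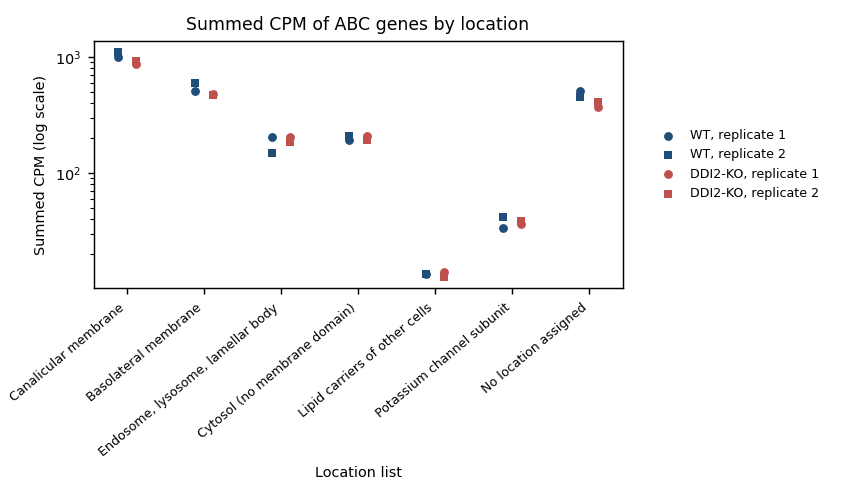
Summed CPM (vertical axis, log scale) of the ABC genes of 7 location lists (horizontal axis). Each point is a library, WT in blue and DDI2-KO in red, circles for replicate 1 and squares for replicate 2. The DDI2-KO sums lie below the WT sums for the canalicular and basolateral membranes and the genes with no assigned location. The lists of the mitochondria and the peroxisome are not plotted. The sum of the peroxisomal Abcd3 and Abcd2 was higher in both DDI2-KO libraries, although Abcd2 alone was lower in both.

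Of the 7 genes of the canalicular membrane, 2 had a higher and 5 a lower estimate in DDI2-KO, 0 passed the test, and the median log2 fold change was -0.32. Abcg2 (chr6:58584523-58695676, plus strand, coordinates here and below in GRCm38), an exporter of urate, porphyrins and many drugs, had the lowest adjusted p of all ABC genes. It was at 33.0 and 28.8 CPM in WT and 52.5 and 48.1 CPM in DDI2-KO. Both DDI2-KO libraries were above both WT libraries, by 1.63-fold (log2 fold change 0.70, SE 0.161, edgeR adjusted p = 0.0609, 95% interval 0.33 to 1.07). Its call depends on the method, since the adjusted p was 0.0187 with DESeq2, 0.00643 with edgeR and no filter on low counts (under which 7.32% of all genes were called), and 0.0254 with offsets for GC content and transcript length (6.05% called), which also moved its log2 fold change to 1.02. Over the fits that left out a library, the log2 fold change of Abcg2 ran from 0.61 to 0.81. No stretch of 50 bases of its longest transcript recurred in a transcript of another gene.

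Abcc2 (chr19:43782192-43840740, plus strand) was at 584 and 622 CPM in WT and 458 and 502 CPM in DDI2-KO. Its DDI2-KO libraries were below the WT libraries (log2 fold change -0.33, SE 0.172, edgeR adjusted p = 0.284), with an interval of -0.73 to 0.064 that includes 0. Abcb4, the floppase that brings phosphatidylcholine into bile, was at 182 and 119.9 CPM in WT and 188 and 161 CPM in DDI2-KO, and the groups overlapped (log2 fold change 0.21, SE 0.225, edgeR adjusted p = 0.620). Its WT libraries differed from each other by 1.51-fold.

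Abcg5 and Abcg8 form a heterodimer that exports cholesterol into bile and into the gut, and their genes lie head to head on chromosome 17, Abcg5 on the minus strand (chr17:84658234-84683011) and Abcg8 on the plus strand (chr17:84676302-84700333). The 109 bases between the start of Abcg5, at 84683011, and the nearest RefSeq start of Abcg8, at 84683121, are shown as the stretch from which both genes are read, in opposite directions. GENCODE also has a start of Abcg8 inside Abcg5, and the exons of the pair overlap over 3.02% of the exonic bases of Abcg5. They run from 84683012 to 84683120 and are written on the plus strand, with capitals for the sole TATAAA match, which reads on the minus strand, 84 bases before the start of Abcg5:
Abcg5-Abcg8 gap, chr17:84683012-84683120: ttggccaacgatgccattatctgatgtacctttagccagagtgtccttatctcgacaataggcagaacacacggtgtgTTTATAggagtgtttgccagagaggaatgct

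Abcg8 was at 105 and 171 CPM in WT and 84.9 and 95.04 CPM in DDI2-KO, so that both DDI2-KO libraries were below both WT libraries (log2 fold change -0.62, SE 0.241, edgeR adjusted p = 0.178). Abcg5 was at 92.1 and 146 CPM in WT and 82.8 and 109 CPM in DDI2-KO, and the first WT library lay between the DDI2-KO libraries (log2 fold change -0.32, SE 0.250, edgeR adjusted p = 0.490). The pair also differed between the WT mice: the second WT library over the first was 1.59-fold for Abcg5 and 1.64-fold for Abcg8. Without that library, the log2 fold change was 0.057 for Abcg5 and -0.22 for Abcg8 (adjusted p = 0.946 and 0.738 from edgeR). Abca1, which like this pair is a known target of the liver X receptors, also had the higher WT level in that library (241 against 179 CPM). Abcg1, another known target, was at 8.21 and 8.80 CPM in WT. Genes of the cholesterol efflux list below went both ways between the WT libraries. Srebf1 was at 133 and 330 CPM, Lpcat3 at 131 and 139 CPM and Mylip at 21.5 and 15.8 CPM in WT. What set the second WT library apart in Abcg5, Abcg8 and Abca1 was not tested.

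Abcb1a and Abcb1b, the mouse genes of the multidrug exporter P-glycoprotein, also differed mainly among the WT mice. Abcb1a was at 6.28 and 12.4 CPM in WT and 8.11 and 8.70 CPM in DDI2-KO, and both DDI2-KO libraries lay between the WT libraries (log2 fold change -0.15, SE 0.315, edgeR adjusted p = 0.809). Abcb1b was at 0.416 and 0.842 CPM in WT, from 14 and 26 reads, and 0.348 and 0.392 CPM in DDI2-KO, from 9 reads each. At this depth its interval, -2.00 to 0.49, covers a 2-fold difference in the lower direction and none. Of the stretches of 50 bases in the longest transcripts of these genes, 18.6% and 19.6% recur in another gene, mainly in each other. Reads from these stretches may thus not be placed on either.

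**Figure D4:**
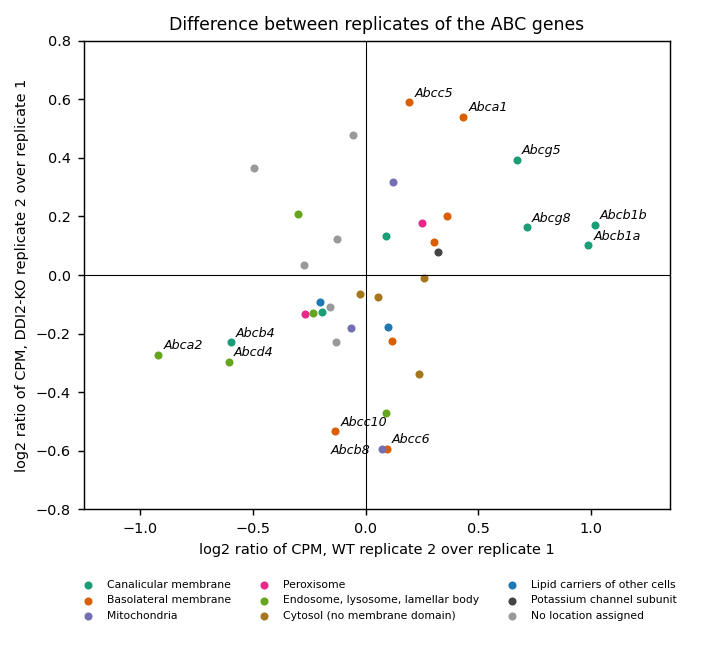
log2 ratio of CPM in replicate 2 over replicate 1 for the WT libraries (horizontal axis) and the DDI2-KO libraries (vertical axis). Each point is a tested ABC gene, coloured by location, and genes past 0.5 in either direction on either axis are named. Abcb1a, Abcb1b, Abcg5 and Abcg8 lie to the right at 0.67 to 1.02 for WT, and Abca2 to the left at -0.92.

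Across the tested ABC genes, the median size of the log2 ratio between replicates was 0.24 in WT and 0.18 in DDI2-KO. Over all genes it was 0.19 in WT and 0.27 in DDI2-KO. The ABC genes thus differed more between the WT mice than between the DDI2-KO mice, which is the opposite order to that of all genes, and this difference was not tested.

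Of the 7 genes of the basolateral membrane, 6 had a lower estimate in DDI2-KO, 0 passed the test, and the median log2 fold change was -0.35. Abcc5 (chr16:20331303-20426394, minus strand), an exporter of cyclic nucleotides, was at 7.88 and 9.00 CPM in WT and 4.02 and 6.05 CPM in DDI2-KO. Abcc10 (chr17:46303221-46328352, minus strand), an exporter of conjugates and some anticancer drugs, was at 6.57 and 5.99 CPM in WT and 4.60 and 3.18 CPM in DDI2-KO. In both genes the DDI2-KO libraries were below the WT libraries, with 1.68-fold more RNA in WT for Abcc5 (log2 fold change -0.75, SE 0.252, edgeR adjusted p = 0.130) and 1.61-fold more for Abcc10 (log2 fold change -0.69, SE 0.255, edgeR adjusted p = 0.158). The counts behind these differences were small, 265 and 278 reads in WT and 104 and 139 in DDI2-KO for Abcc5, and 221 and 185 against 119 and 73 for Abcc10.

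Abcc3, which exports glucuronides to the blood, had the highest level of this list and an estimate near 0. It was at 208 and 225 CPM in WT and 229 and 196 CPM in DDI2-KO (log2 fold change -0.026, SE 0.175, edgeR adjusted p = 0.947). Its 95% interval was -0.43 to 0.38. Abcc6, whose product releases ATP from hepatocytes and restrains mineralisation of soft tissue, was at 100.4 and 107 CPM in WT and 93.5 and 62.0 CPM in DDI2-KO, and the lower mean in DDI2-KO rested mainly on its second library (log2 fold change -0.42, SE 0.214, edgeR adjusted p = 0.279). Abca1, which loads cholesterol onto apolipoprotein A-I, was at 179 and 241 CPM in WT and 134 and 195 CPM in DDI2-KO with overlapping groups (log2 fold change -0.35, SE 0.237, edgeR adjusted p = 0.406). The levels of Abcc4, at 5.53 and 6.83 CPM in WT and 5.87 and 6.35 CPM in DDI2-KO, and Abcc1, at 3.33 and 4.27 CPM in WT and 3.63 and 4.18 CPM in DDI2-KO, overlapped too.

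NRF1 and NRF2 bind antioxidant response elements, so the core of that element, TGACNNNGC on either strand, was searched in RefSeq promoter windows of GRCm38.p6 from 250 bases before to 50 bases after a start site. Windows were found for 37 of the 49 ABC genes, 44 windows in all. The core was present in 7 of 44 windows, or 15.9%, and in 12.4% of the 32851 windows of all genes. It lay in windows of 5 ABC genes: Abcc2, Abcc4, Abcc10, Abcb1a and Abca8b. The matches that lie before a start site are shown with 10 bases on each side, read in the direction of the motif, with the core in capitals:
Abcc2, plus strand, chr19:43782200-43782228: ctcactgggaTGACATAGCattcatctag
Abcc4, minus strand, chr14:118676936-118676964: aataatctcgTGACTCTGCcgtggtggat
Abcc4, plus strand, chr14:118706226-118706254: cggcccgcccTGACCCCGCctctcggggc
Abcc10, minus strand, chr17:46328208-46328236: cgcagcacccTGACCTGGCagcgcgtcct

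These matches lie 98 bases before a RefSeq start of Abcc2, 23 and 25 bases before different RefSeq starts of Abcc4, and 203 bases before a RefSeq start of Abcc10. By GENCODE coordinates, the matches of Abcc2 and Abcc10 and the first of Abcc4 lie inside the gene. Only the second match of Abcc4 lies before the whole gene. The log2 fold changes of the 5 genes were -0.33 for Abcc2, -0.016 for Abcc4, -0.69 for Abcc10, -0.15 for Abcb1a and -0.32 for Abca8b, with adjusted p from 0.158 to 0.974 by edgeR. All were below 0, but when a library was left out those of Abcc4 and Abcb1a ran from -0.16 to 0.14 and from -0.56 to 0.42. A match is a description of these letters and not a bound site. Liver X receptors bind a direct repeat, and its exact form of 2 copies of AGGTCA with 4 bases between them was searched too. It was in 0 of 44 windows of ABC genes and in 5 of 32851 windows of all genes (0.0152%). A match this rare cannot tell whether the ABC genes have a site of these receptors. TATAAA was in 15.9% of the windows of ABC genes and in 13.6% of all windows.

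Mitochondrial genes had estimates in both directions, and none passed the test. Abcb6 (chr1:75171717-75180392, minus strand), linked to porphyrin transport, was at 1.10 and 1.20 CPM in WT and 2.55 and 3.18 CPM in DDI2-KO. The counts were 37 in each WT library and 66 and 73 in the DDI2-KO libraries, and these groups did not overlap (log2 fold change 1.31, SE 0.315, edgeR adjusted p = 0.0667). The 2.48-fold difference was the largest estimate among the tested ABC genes. Abcb6 shares 55.2% of its exonic bases with the gene model Gm29253 on the same strand, which had 0 reads in each library. Of the 50-base stretches of its longest transcript, 66.8% recur in other genes, mainly in Gm29253. Without a filter on low counts its adjusted p was 0.0116 with edgeR. Reads classed as ambiguous in the counting were assigned to no gene. The rule for overlaps is not given in the sources used here, so how many reads of Abcb6 fell in that class is not known. Abcb10 (chr8:123952459-123983122, minus strand), which haem synthesis in erythroid cells needs, was at 23.3 and 22.2 CPM in WT and 35.1 and 30.9 CPM in DDI2-KO, with both DDI2-KO libraries above both WT libraries (log2 fold change 0.54, SE 0.162, edgeR adjusted p = 0.103). An antisense gene model, Gm45890, overlaps 10.3% of its exonic bases.

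Abcb8 was at 20.5 and 21.5 CPM in WT and 22.3 and 14.8 CPM in DDI2-KO with overlapping groups (log2 fold change -0.17, SE 0.216, edgeR adjusted p = 0.674). The erythroid markers were all lower in DDI2-KO by estimate (5 of 5, 1 of them called). They summed to 109 and 210.1 CPM in WT and 79.3 and 68.3 CPM in DDI2-KO, with none at 0, and Alas2 was at 22.6 and 42.2 CPM in WT and 28.1 and 22.8 CPM in DDI2-KO. Their part in the values of the mitochondrial genes was not tested.

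**Figure D5:**
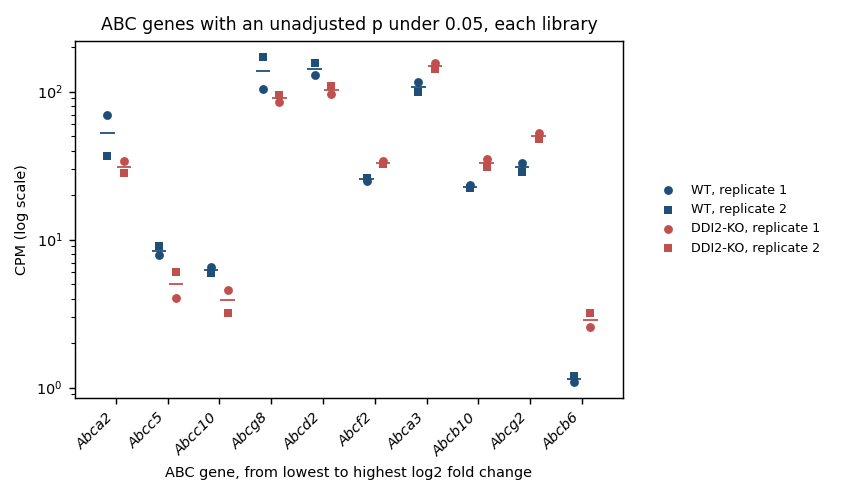
CPM (vertical axis, log scale) of 10 of the 11 ABC genes with an unadjusted p under 0.05 (horizontal axis, ordered by log2 fold change). Each point is a library, WT in blue and DDI2-KO in red, circles for replicate 1 and squares for replicate 2, and horizontal lines are means (n = 2). The groups do not overlap in any of these genes, as in all 3216 genes with an unadjusted p under 0.05, and Abca2 and Abcg8 show the widest gap between the WT libraries.

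The peroxisomal genes Abcd3 and Abcd2 had estimates in opposite directions. Abcd3 (chr3:121758774-121815302, minus strand) was at 414 and 344 CPM in WT and 510.0 and 465 CPM in DDI2-KO, with both DDI2-KO libraries above both WT libraries (log2 fold change 0.36, SE 0.183, edgeR adjusted p = 0.272). Abcd2 (chr15:91145871-91191799, minus strand), which carries very long-chain acyl-CoA, was at 130.5 and 155 CPM in WT and 95.9 and 108 CPM in DDI2-KO. It lay in the other direction, with both DDI2-KO libraries below both WT libraries (log2 fold change -0.48, SE 0.175, edgeR adjusted p = 0.151). The opposite estimates of Abcd3 and Abcd2 had intervals of -0.058 to 0.78 and -0.88 to -0.081, and their difference was not tested.

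In the endosome, lysosome and lamellar body list, Abca3 and Abca2 lay in opposite directions. Abca3 (chr17:24351950-24410201, plus strand), which loads phospholipid into the lamellar bodies of the lung, was at 116 and 98.7 CPM in WT and 156 and 143 CPM in DDI2-KO (log2 fold change 0.48, SE 0.171, edgeR adjusted p = 0.148), and a gene model on the opposite strand, D330041H03Rik, overlaps 9.75% of its exonic bases. Abca2 (chr2:25428703-25448540, plus strand), a lysosomal lipid transporter, was at 69.3 and 36.6 CPM in WT and 33.8 and 28.0 CPM in DDI2-KO (log2 fold change -0.78, SE 0.298, edgeR adjusted p = 0.184). The groups did not overlap in either gene, but the first WT library of Abca2 had 1.89 times the level of the second. Over the fits that left out a library, the log2 fold change of Abca2 ran from -1.16, without the second WT library, to -0.24. Abcd4, which hands cobalamin out of the lysosome, was at 10.4 and 6.80 CPM in WT and 8.38 and 6.83 CPM in DDI2-KO (log2 fold change -0.17, SE 0.255, edgeR adjusted p = 0.727), and Abca5 and Abcb9 had log2 fold changes of 0.074 and -0.15 with overlapping groups.

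The ABC proteins without a membrane domain had the smallest median SE of the location lists with more than 1 tested gene, 0.16. Abce1 (chr8:79683462-79711740, minus strand), which splits ribosomes after termination, was at 89.2 and 87.6 CPM in WT and 73.7 and 70.5 CPM in DDI2-KO. Both DDI2-KO libraries were below both WT libraries (log2 fold change -0.30, SE 0.154, edgeR adjusted p = 0.285). Abcf2 was at 25.0 and 26.0 CPM in WT and 34.0 and 32.2 CPM in DDI2-KO (log2 fold change 0.38, SE 0.155, edgeR adjusted p = 0.194) and Abcf3 at 36.7 and 43.9 CPM in WT and 52.0 and 51.6 CPM in DDI2-KO (log2 fold change 0.36, SE 0.162, edgeR adjusted p = 0.220), and in both genes the DDI2-KO libraries lay above the WT libraries. Abcf1, which takes part in translation initiation, overlapped between the groups (log2 fold change -0.14, SE 0.180, edgeR adjusted p = 0.689). All 4 intervals lay within 2-fold in either direction.

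Of the lipid carriers known from macrophages, Abcg1 was at 8.21 and 8.80 CPM in WT and 10.4 and 9.18 CPM in DDI2-KO (log2 fold change 0.20, SE 0.195, edgeR adjusted p = 0.574) and Abca7 at 5.29 and 4.60 CPM in WT and 3.71 and 3.48 CPM in DDI2-KO (log2 fold change -0.46, SE 0.235, edgeR adjusted p = 0.277). The groups did not overlap in either gene, with Abcg1 higher and Abca7 lower in the DDI2-KO libraries. The 6 Kupffer cell and macrophage markers summed to 529.6 and 463 CPM in WT and 648 and 544 CPM in DDI2-KO, 4 with a higher and 2 with a lower estimate in DDI2-KO, none called and none at 0, and their part in these values was not tested. Abcc9, the regulatory subunit of vascular potassium channels, was at 33.5 and 41.8 CPM in WT and 36.4 and 38.5 CPM in DDI2-KO with overlapping groups (log2 fold change -0.0085, SE 0.171, edgeR adjusted p = 0.981). The 4 smooth muscle and pericyte markers were all lower in DDI2-KO by estimate with none called, and summed to 71.2 and 96.3 CPM in WT and 50.1 and 61.4 CPM in DDI2-KO, and their part in the level of Abcc9 was not tested.

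Abca8b, Abca8a, Abca9, Abca6 and Abca5 lie in this order on the minus strand of chromosome 11, with no other protein-coding gene between them. They share a position but not a level: Abca6 was at 32.8 CPM per kilobase of exons over the 4 libraries, Abca8a at 23.5 and Abca8b at 13.2, while Abca9 was at 0.811 and Abca5 at 0.564. Abca6 was at 212 and 175 CPM in WT and 159 and 163 CPM in DDI2-KO (log2 fold change -0.27, SE 0.176, edgeR adjusted p = 0.396). Abca8a was at 167 and 161 CPM in WT and 109 and 153 CPM in DDI2-KO (log2 fold change -0.33, SE 0.199, edgeR adjusted p = 0.358), and Abca8b at 115 and 103 CPM in WT and 90.3 and 83.7 CPM in DDI2-KO (log2 fold change -0.32, SE 0.163, edgeR adjusted p = 0.274). In these 3 genes and in Abca9 (log2 fold change -0.21, SE 0.208, edgeR adjusted p = 0.584) both DDI2-KO libraries were below both WT libraries, whereas Abca5 overlapped (log2 fold change 0.074, SE 0.223, edgeR adjusted p = 0.874). None of the 5 passed the test. Of all genes tested, 27.7% had both DDI2-KO libraries below both WT libraries, and the 5 neighbours were not tested as a set.

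Other neighbours also differed in level. Abcb1a, Abcb1b and Abcb4 follow each other on the plus strand of chromosome 5 at 1.62, 0.0625 and 17.3 CPM per kilobase of exons. Abca17 had no reads, although only 881 bases separate it from Abca3, which was at 13.7 CPM per kilobase, on the opposite strand. Abca14, Abca15 and Abca16, in a row on chromosome 7, had from 0 to 11 reads in a library.

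Abcg3 and Abcc12 have no location assigned. Abcg3, a rodent relative of Abcg2, was at 8.18 and 7.48 CPM in WT and 7.03 and 6.01 CPM in DDI2-KO (log2 fold change -0.26, SE 0.208, edgeR adjusted p = 0.488), with both DDI2-KO libraries below both WT libraries. Abcc12 was at 0.684 and 0.485 CPM in WT and 0.541 and 0.696 CPM in DDI2-KO, from 14 to 23 reads, with overlapping groups (log2 fold change 0.071, SE 0.460, edgeR adjusted p = 0.944).

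Genes that work with the transporters were taken in lists, and 1 of their 55 tested members (1.82%) passed the test, against 2.53% of all genes. Of 11 tested genes of cholesterol efflux, 1 was called higher and 0 lower: Npc2, which hands cholesterol to the lysosomal membrane, rose from 83.1 and 85.4 CPM in WT to 165 and 137 CPM in DDI2-KO (log2 fold change 0.84, SE 0.172, edgeR adjusted p = 0.0472). This call was lost with limma-voom, limma-trend, upper-quartile factors, estimation that was not robust and a filter at a mean of 1 CPM (adjusted p from 0.0521 to 0.0612). It was also lost without either WT library or the first DDI2-KO library (edgeR adjusted p from 0.0689 to 0.206). Pltp, the phospholipid transfer protein, was at 41.5 and 43.2 CPM in WT and 96.2 and 56.6 CPM in DDI2-KO and was not called (log2 fold change 0.85, SE 0.245, edgeR adjusted p = 0.0989). Of the 11 genes, the DDI2-KO libraries lay above WT in 2, Npc2 and Pltp, and below WT in 3, and the groups overlapped in 6. Among the 3 were Apoe, an apolipoprotein that accepts cholesterol (log2 fold change -0.38), and Nr1h2, liver X receptor beta (log2 fold change -0.34). Of all genes tested, 28% lay above and 27.7% below, so these counts are not read as a result about the list.

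Of the 7 genes of the canalicular scaffold and flippase, 5 had a higher and 2 a lower estimate in DDI2-KO, and 0 were called. Among the 2 was Slc9a3r1, a scaffold that holds membrane proteins at the apical side. It was at 154 and 161 CPM in WT and 120.4 and 96.4 CPM in DDI2-KO (log2 fold change -0.54, SE 0.178, edgeR adjusted p = 0.124). Of the 7 xenobiotic receptors and targets, 4 had a higher and 3 a lower estimate in DDI2-KO, and 0 were called. The median log2 fold change of this list was 0.19, and the 2 genes given next are among the 3 lower ones. Por, the reductase of microsomal cytochromes P450, was at 283 and 318 CPM in WT and 189.6 and 107 CPM in DDI2-KO (log2 fold change -1.02, SE 0.271, edgeR adjusted p = 0.0833), and Nr1i3, the receptor CAR, at 239 and 187 CPM in WT and 134 and 159.8 CPM in DDI2-KO (log2 fold change -0.54, SE 0.195, edgeR adjusted p = 0.152). Both lay below WT in both DDI2-KO libraries.

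Of the 10 genes of peroxisomal membrane import and oxidation, 9 had a higher estimate in DDI2-KO and 0 were called. Ehhadh, an enzyme of peroxisomal beta-oxidation, was at 283 and 368 CPM in WT and 629.9 and 557 CPM in DDI2-KO (log2 fold change 0.87, SE 0.198, edgeR adjusted p = 0.0613), and Pex19, which brings peroxisomal membrane proteins such as ABCD transporters to the organelle, at 112 and 102 CPM in WT and 194 and 157 CPM in DDI2-KO (log2 fold change 0.71, SE 0.180, edgeR adjusted p = 0.0729). Of the 10 genes of mitochondrial iron-sulfur and haem metabolism, 5 had a higher and 5 a lower estimate in DDI2-KO, and 0 were called. Glrx5, a glutaredoxin of iron-sulfur cluster transfer, was at 13.5 and 16.8 CPM in WT and 34.8 and 24.8 CPM in DDI2-KO (log2 fold change 0.98, SE 0.214, edgeR adjusted p = 0.0556). Of the 8 genes of ribosome recycling and initiation, 0 were called, and their log2 fold changes ran from -0.40 to 0.34. Of the ABC proteins with other symbols, Tap1 and Tap2, the peptide transporter of antigen presentation, had log2 fold changes of -0.23 and -0.24 with overlapping groups, and Cftr was below the filter.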

How the data were processed

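Liver mRNA of 2 WT and 2 DDI2-KO mice was sequenced (Illumina TruSeq Stranded mRNA). Tables of raw counts, not normalized, were deposited, with reads summed per Ensembl gene and library. The submitters' processing notes name cutadapt 1.8, STAR 2.5.2b, HTSeq 0.6.1 and GRCm38; whether counting used strand is not given in the sources used here, so reads of genes that overlap on opposite strands may not be told apart. The summary lines after the genes were left out. Relative to the reads on genes, reads on no gene equalled 5.11% and 4.70% in WT and 2.53% and 3.65% in DDI2-KO. Ambiguous reads, assigned to no gene, equalled 2.50% and 2.54% in WT and 3.49% and 3.66% in DDI2-KO. Reads without a unique place equalled 65.8% and 51.8% in WT and 49.2% and 47.3% in DDI2-KO. Reads from stretches with copies elsewhere are thus not in the counts. Symbols and coordinates are from GENCODE M21, which holds 48349 of the 48709 identifiers, and promoter sequences from RefSeq (GRCm38.p6).

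Counts were compared with edgeR 4.0.16 in R 4.3.3 (filterByExpr, TMM, glmQLFit with robust estimation, glmQLFTest, no replicate block), adjusted by Benjamini-Hochberg over all 13699 genes tested, after the scripts had been tested on simulated data. SE is the log2 fold change divided by the square root of F, and intervals use it with the test's degrees of freedom. Alternatives, whose effect is given below, were RLE, upper-quartile or no scaling factors, DESeq2 1.42.0, limma 3.58.1 (voom, or trend at prior count 2), testing without a filter, a filter at a mean of 1 CPM, estimation that was not robust, a replicate block, offsets for GC content and length (lowess span 0.3), and leaving out each library. Values are given for ABC genes with an adjusted p under 0.05, those with an unadjusted p under 0.05 and groups that do not overlap, and the 3 highest per location list by level per length; others are named with their level or fold change. The members, location, partner and marker lists were chosen with earlier results of these data known. Replicates differed beyond sampling noise (chi-square over its degrees of freedom, 69.7 in WT and 37.4 in DDI2-KO). With 2 libraries a group, p-values rest on the spread between these mice, which the fit draws for each gene towards the trend over all genes. That spread sets the precision more than depth does. The detection limit of 3 counts covers counting error only. Some genes of the family are not reported by name.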

Additional observations from a re-analysis of the deposited data

How the results depend on the processing

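The counts of ABC genes called moved with the method, from 0 in the fit reported. The number called higher in DDI2-KO was 1 with DESeq2 (Abcg2, against 6.86% of all genes), 2 without a filter on low counts (Abcb6 and Abcg2, of 42 tested; 7.32% of all genes), and 1 with offsets for GC content and transcript length (Abcg2; 6.05%). Fits that left out a library hold 1 library in a group, so their calls are not counted here. Over those fits the log2 fold change ran from 0.61 to 0.81 for Abcg2 and from -1.16 to -0.24 for Abca2. With limma-voom, limma-trend, other scaling factors, a mean of at least 1 CPM or no robust estimation the count stayed at 0. Over all genes, the 346 calls became 940 with DESeq2, 136 with limma-voom, 139 with limma-trend, 1544 without a filter, 829 with the offsets and 152 without robust estimation. Upper-quartile factors changed the split from 182 higher and 164 lower to 126 higher and 191 lower. The causes of these differences were not tested.

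The WT and DDI2-KO samples share replicate numbers in the labels, but no label pairs them. Deviations of same-numbered samples from their group means correlated by 0.0588 over 13699 genes. With 2 libraries a group, both deviations of a group come from the same difference. The correlation therefore cannot decide whether same-numbered mice shared a litter, day or batch. With the number as a replicate block, 2 ABC genes were called higher (Abcb6 and Abcg2) and 1 lower (Abca2), among 1108 of all genes.

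The median log2 fold change of the ABC genes, -0.17, ran from -0.23 with upper-quartile factors to -0.12 with the offsets, was -0.20 with the replicate block, and was -0.19 to -0.12 without a library each. Of the 28 genes named by rule, 2 changed sign in settings other than leaving out a library: Abcc3 (0.022 with library totals only) and Abcc9 (0.041 with library totals only, 3.1e-05 with limma-voom, 0.0028 without a filter and 0.069 with the offsets). Leaving out a library also changed the sign of Abcb8 (-0.50 to 0.099), Abcd4 (-0.44 to 0.17) and Abcg5 (-0.61 to 0.057), and gave -0.14 to 0.091 for Abcc3 and -0.16 to 0.16 for Abcc9. Genes below about 10 reads a library, and the fold changes of Abcb1b and Abcc12, are limited by depth.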
